A study of Mus musculus with 16 samples.

Results

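The transcripts described here are the insulin-like growth factor *Igf1*, its receptor *Igf1r* and 6 binding proteins, *Igfbp2*, *Igfbp3*, *Igfbp4*, *Igfbp5*, *Igfbp6* and *Igfbp7*. They were taken by symbol, and make up 8 of the 18990 genes of the deposited table. The cells were wild-type BL6 primary mouse embryonic fibroblasts (MEFs), the connective tissue cells of the embryo, on their way to induced pluripotent stem cells. Every group, the control included, carried the doxycycline-inducible tet-STEMCCA cassette (Oct4, Sox2, Klf4 and c-Myc, together OSKM) and rtTA from lentiviruses, and was kept in serum-containing medium with doxycycline, chiron, an Alk5 (TGFβ receptor) inhibitor, ascorbic acid and LIF. Before induction the cells received non-targeting siRNA (nt, the control) or pooled siRNAs against *Wdr5* (siWdr5), *Brca1* (siBrca1) or *Bard1* (siBard1), and RNA was taken 3 and 6 days into reprogramming (day 3 and day 6). Each of the 8 groups had 2 libraries, described by the study as biological replicates. The cultures were mixed populations, in which cells that reprogram and cells that do not were read together. A lower bulk level can therefore mean fewer cells of a type or less RNA per cell, and these cannot be told apart.

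IGF1 is a secreted growth factor that binds the receptor tyrosine kinase IGF1R and, through insulin receptor substrates, signals to PI3K and AKT. Most of it is held outside the cell by binding proteins, which prolong its life, keep it from the receptor, or release it near the cell when proteases cut them. Fibroblasts are a known source of both IGF1 and several binding proteins, and IGF signalling is among the best known survival signals of cells in culture.

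Values are counts scaled to library size (CPM), computed as 2 to the power of the deposited log2 CPM. They include a prior of 1.57 to 3.57 reads that the authors' software added. Among the members this prior matters only for *Igf1*. It also matters for other named genes with few reads, such as *Plin1* and *Pappa2*. The libraries held 11169738 to 26832534 reads. At day 3, *Wdr5* was at 132 and 130 CPM in the nt libraries and at 50.6 and 55.3 in siWdr5. *Brca1* was at 82.4 and 78.0 CPM in nt and at 37.5 and 19.4 in siBrca1, and *Bard1* at 30.5 and 29.1 in nt and at 18.0 and 20.8 in siBard1. Each target was thus lower in its own knockdown, but *Bard1* was lower still in siWdr5 (13.9 and 15.3 CPM) and in siBrca1 (14.4 and 9.07 CPM). The other targets also lay below nt outside their own knockdown. *Wdr5* was at 74.3 and 68.9 CPM in siBrca1 and at 96.6 and 91.9 in siBard1. *Brca1* was at 40.5 and 48.4 CPM in siWdr5 and at 57.8 and 66.1 in siBard1. At day 6 the target levels no longer separated the groups: *Brca1* was at 33.2 and 42.6 CPM in nt and at 35.9 and 40.1 in siBrca1, and *Bard1* at 11.3 and 14.0 in nt and at 12.6 and 14.5 in siBard1, while *Wdr5* was at 91.8 and 98.1 in nt and at 85.5 and 72.4 in siWdr5. All 9 fibroblast markers looked for were in the table. Their summed level at day 3 was 7745 to 8734 CPM in nt, 13680 to 14214 in siWdr5, 11545 to 12696 in siBrca1 and 9637 to 11221 in siBard1. The largest part of each sum was *Col1a1*, at 3312 and 4043 CPM in nt and 7242 and 7228 in siWdr5. The 5 early reprogramming markers (*Cdh1*, *Epcam*, *Sall4*, *Esrrb* and *Nanog*) summed to 42.9 to 62.3 CPM in nt, 16.4 to 17.0 in siWdr5, 15.2 to 24.4 in siBrca1 and 33.9 to 38.0 in siBard1. The part of the fibroblast and reprogramming markers in the results below was not tested.

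In the mouse genome (GRCm38, GENCODE vM21) the 8 members are protein-coding genes on 6 chromosomes. *Igfbp2* (chromosome 1, 72824503 to 72852474, plus strand) and *Igfbp5* (chromosome 1, 72857932 to 72874884, minus strand) lie tail to tail, 5457 bp apart. *Igfbp3* (chromosome 11, 7206086 to 7213923) and *Igfbp4* (chromosome 11, 99041244 to 99054392) share a chromosome but are far apart. *Igfbp6* is on chromosome 15 (102144362 to 102149511), *Igfbp7* on chromosome 5 (77349240 to 77408041), *Igf1* on chromosome 10 (87858265 to 87937042) and *Igf1r* on chromosome 7 (67952827 to 68233668). Of the exon bases of *Igfbp7*, 85 (7.03%) lie opposite exons of *Polr2b*. Whether reads were counted by strand is not given in the sources used here, so reads from these bases may belong to either gene.

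The promoters of 4 binding proteins are shown because their transcripts had the largest rises of the 8 members against nt at day 3. These were *Igfbp4* and *Igfbp5* in siWdr5 and *Igfbp2* and *Igfbp7* in siBrca1. *Igfbp7* rose in siWdr5 as well (log2 fold change 1.47, against 1.44 for *Igfbp4*). Each runs 5′ to 3′ on the strand of its gene, from 250 bases before to 50 bases after the RefSeq start site (GRCm38.p6): *Igfbp4* at chr11:99040994-99041293 (plus strand), *Igfbp5* at chr1:72874816-72875115 (minus), *Igfbp2* at chr1:72824230-72824529 (plus) and *Igfbp7* at chr5:77407996-77408295 (minus). Capitals mark matches, on either strand, to TATAAA and TATTTA (letters of TATA boxes), GGGCGG (GC box), TGANTCA (AP-1), CATTCC (TEAD) and TGTTTAC (FOXO).

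Igfbp4: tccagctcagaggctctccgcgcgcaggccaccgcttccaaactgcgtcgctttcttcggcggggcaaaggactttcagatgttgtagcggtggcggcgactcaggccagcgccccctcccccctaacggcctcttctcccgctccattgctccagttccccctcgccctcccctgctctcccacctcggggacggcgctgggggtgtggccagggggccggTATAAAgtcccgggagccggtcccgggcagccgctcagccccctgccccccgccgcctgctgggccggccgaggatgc

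Igfbp5: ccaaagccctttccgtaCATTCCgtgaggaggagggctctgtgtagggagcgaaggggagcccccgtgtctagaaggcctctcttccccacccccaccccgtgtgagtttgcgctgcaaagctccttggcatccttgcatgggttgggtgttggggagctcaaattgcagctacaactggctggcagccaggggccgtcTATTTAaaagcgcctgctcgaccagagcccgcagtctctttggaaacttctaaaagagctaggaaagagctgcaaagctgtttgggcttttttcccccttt

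Igfbp2: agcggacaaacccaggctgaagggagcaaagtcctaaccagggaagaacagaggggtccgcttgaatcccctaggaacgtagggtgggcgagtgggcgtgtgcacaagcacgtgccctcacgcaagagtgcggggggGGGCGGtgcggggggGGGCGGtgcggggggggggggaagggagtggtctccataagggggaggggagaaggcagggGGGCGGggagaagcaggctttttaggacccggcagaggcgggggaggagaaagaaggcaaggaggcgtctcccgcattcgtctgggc

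Igfbp7: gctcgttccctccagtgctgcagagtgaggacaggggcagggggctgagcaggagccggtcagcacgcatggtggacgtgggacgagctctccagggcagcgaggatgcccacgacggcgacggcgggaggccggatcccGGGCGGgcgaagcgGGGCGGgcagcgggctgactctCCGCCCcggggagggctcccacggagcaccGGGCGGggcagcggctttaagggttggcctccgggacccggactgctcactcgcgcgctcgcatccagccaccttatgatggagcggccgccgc

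The *Igfbp4* window held TATAAA 28 bases before the start site and *Igfbp5* held TATTTA 51 bases before it. Neither *Igfbp2* nor *Igfbp7* held either word. *Igfbp2* held 3 and *Igfbp7* held 4 matches to GGGCGG, and *Igfbp4* and *Igfbp5* held none. *Igfbp5* also held CATTCC, 233 bases before its start site. Among 32817 windows of the same length, 13.6% held TATAAA, 13.7% TATTTA, 35.6% GGGCGG, 7.81% TGANTCA, 14.7% CATTCC and 3.65% TGTTTAC. A second RefSeq start of *Igfbp2*, at chr1:72825137-72825436, held TGANTCA 39 bases before it and no GGGCGG. Of the other members, *Igf1r* held GGGCGG at 2 places and *Igf1* held TGANTCA, with the letters TGAATCA. *Igfbp6* held TATAAA 148 bases before its start on the opposite strand, while *Igfbp3* held none of the 6 words.

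All 8 members passed the filter on low values. To set the genes against each other, levels were divided by the merged exon length in kilobases (CPM per kb, mean ± SD, n = 2). In the nt control at day 3 the order was *Igfbp7* (47.7 ± 0.632), *Igfbp2* (44.6 ± 0.118), *Igfbp4* (26.9 ± 1.26), *Igfbp6* (17.0 ± 0.293), *Igf1r* (15.9 ± 1.04), *Igfbp3* (9.55 ± 0.271), *Igfbp5* (4.69 ± 0.0326) and *Igf1* (0.0796 ± 0.0199). The means of *Igfbp6* and *Igf1r* lay within about 1 SD of each other, and the other neighbours were farther apart than their spread. At day 6 *Igfbp3* (35.6 ± 3.21) and *Igfbp4* (35.5 ± 5.98) led without differing beyond their spread. *Igfbp7* (28.6 ± 5.48) and *Igfbp2* (24.4 ± 0.285) followed, also within the spread of the first. *Igfbp6* (12.8 ± 4.39), *Igfbp5* (9.87 ± 0.331) and *Igf1r* (9.77 ± 0.669) did not differ beyond their spread, and *Igf1* was again last (0.211 ± 0.0175). *Igf1* thus came from few reads everywhere, 9 to 80 in a library, while the other members had 134 to 10320.

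**Figure D1:**
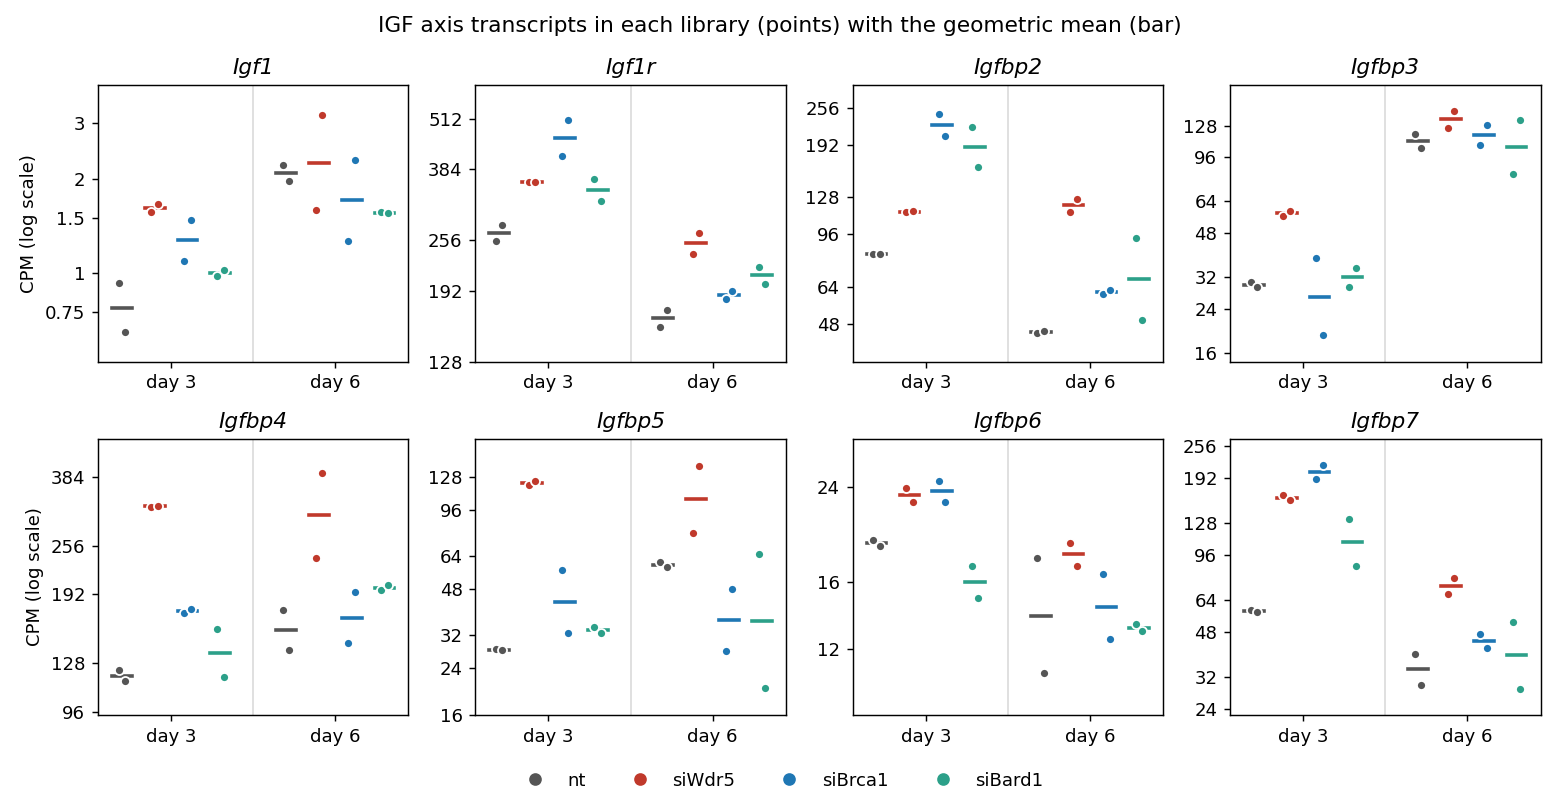
CPM (log scale) of each member in every library (points; R1 left, R2 right) with the geometric mean of the 2 libraries (bar), for nt, siWdr5, siBrca1 and siBard1 at day 3 and day 6. At day 3 the means of *Igfbp4* and *Igfbp5* are highest in siWdr5 and those of *Igfbp2* and *Igfbp7* in siBrca1, where 1 siBard1 library lies between the siBrca1 libraries for *Igfbp2*, and *Igfbp3* lies higher at day 6 than at day 3 in all 4 groups.

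The course of reprogramming in the control, which had received non-targeting siRNA, was read from the nt libraries. From day 3 to day 6 the binding proteins parted: *Igfbp3* and *Igfbp5* rose together with *Igf1*, and *Igfbp2*, *Igfbp7* and *Igf1r* fell. Of the 8 members 6 passed at an adjusted p below 0.05 (46.2% of all genes tested did), and 3 of them were also over the 2-fold threshold, all higher (7.80% of all genes tested were higher past both thresholds). *Igfbp3*, which carries most IGF in the blood, went from 30.5 and 29.3 CPM to 118 and 104 CPM. Its log2 fold change was 1.89 (SE 0.25, limma, adjusted p = 3.1e-05), the largest of the 8. *Igf1* went from 12 and 9 reads to 26 and 23 reads (0.928 and 0.650 to 2.22 and 1.97 CPM), a log2 fold change of 1.43 (SE 0.38, limma, adjusted p = 0.0056). *Igfbp5*, which binds the extracellular matrix as well as IGF, went from 28.3 and 28.0 to 60.7 and 57.9 CPM (1.07, SE 0.40, limma, adjusted p = 0.038, range over the alternatives 0.0259 to 0.130). None of the 3 genes had overlapping days, a description of 2 libraries against 2 with no test. *Igf1* was not called without nt day 3 replicate 2 (1.17, limma, adjusted p = 0.064), nor *Igfbp5* without any 1 of the 4 nt libraries, which left 1 member called without nt day 3 replicate 2. With 1 CPM added to each value before the logarithm, *Igf1* was under 2-fold (0.79).

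Those that fell in nt did so by less than 2-fold. *Igfbp2* went from 82.5 and 82.1 CPM to 44.7 and 45.4, and its log2 fold change was −0.87 (SE 0.21, limma, adjusted p = 0.0030). *Igfbp7*, a relative with low affinity for IGF that is abundant around vessels and in ageing fibroblasts, went from 58.2 and 57.2 to 39.2 and 29.9 CPM (−0.75, SE 0.23, limma, adjusted p = 0.013, range over the alternatives 0.00513 to 0.127). The receptor *Igf1r* went from 255 and 280 to 156 and 172 CPM (−0.71, SE 0.12, limma, adjusted p = 0.00024). *Igfbp4*, an inhibitor of IGF action until the protease PAPP-A cuts it, was at 123 and 115 CPM at day 3 and 176 and 138 at day 6, which did not pass (0.39, 95% interval −0.03 to 0.81). *Igfbp6*, which prefers IGF2, was at 19.1 and 18.7 and then 17.7 and 10.8 CPM (−0.45, 95% interval −0.86 to −0.04, limma, adjusted p = 0.066). The median over the 8 was −0.03 and over all genes tested −0.07.

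At day 3, siWdr5 cells had more RNA of nearly the whole group. All 8 members were higher than in nt (46.5% of all genes were), 7 passed higher at an adjusted p below 0.05 (18.3% of all genes did) and 4 were called higher, that is, also over 2-fold (4.10% of all genes were). The called members were *Igfbp5*, *Igfbp7*, *Igfbp4* and *Igf1*. The median log2 fold change of the 8 was 1.00, against −0.04 over all genes tested.

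*Igfbp5* moved most. It was at 28.3 and 28.0 CPM in nt and at 119 and 124 CPM in siWdr5, a 4.30-fold rise (log2 fold change 2.11, SE 0.18, limma, adjusted p = 4.7e-06). *Igfbp4* went from 123 and 115 to 321 and 324 CPM, 2.72-fold (1.44, SE 0.12, limma, adjusted p = 4.3e-06). *Igfbp7* went from 58.2 and 57.2 to 164 and 156 CPM, 2.77-fold (1.47, SE 0.15, limma, adjusted p = 1.8e-05). In these 3 the replicates of a group lay close together and far from the other group. Their adjusted p stayed below 0.005 under every alternative tried, single libraries left out included. *Igf1*, the ligand, had 12 and 9 reads in nt and 23 and 23 in siWdr5 (log2 fold change 1.06, SE 0.35, limma, adjusted p = 0.032). The groups did not overlap, but without any 1 of the 4 libraries its adjusted p lay between 0.056 and 0.215, and with 1 CPM added to each value its log2 fold change was 0.55.

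The other members changed less. *Igfbp3* rose from 30.5 and 29.3 to 56.0 and 58.9 CPM (log2 fold change 0.94, SE 0.23, limma, adjusted p = 0.0061), which did not pass without either siWdr5 library (adjusted p up to 0.0639). *Igfbp2* rose from 82.5 and 82.1 to 114 and 115 CPM (0.48, SE 0.13, limma, adjusted p = 0.014, range over the alternatives 6.0e-05 to 0.091). *Igf1r* rose from 255 and 280 to 356 and 356 CPM (0.41, SE 0.12, limma, adjusted p = 0.016, range 0.00022 to 0.154). *Igfbp6* was at 19.1 and 18.7 CPM in nt and 23.9 and 22.6 in siWdr5 and did not pass (0.30, 95% interval 0.01 to 0.58, limma, adjusted p = 0.098). Markers of fibroblasts moved in the same samples: 8 of 9 passed higher in siWdr5 (18.3% of all genes did) and none lower, with *Lum* (1.45) and *Thy1* (1.05) over 2-fold. In siBrca1 5 of these markers passed higher (25.4% of all genes) and 1 lower, and in siBard1 none higher (8.67% of all genes) and 1 lower.

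siBrca1 cells shared part of this and differed in which binding proteins led. Of the 8 members, 7 were higher than nt (50.2% of all genes were). There were 5 that passed higher (25.4% of all genes did) and 2 called higher (7.12% of all genes were). The median log2 fold change of the 8 was 0.66, against 0.00 over all genes. *Igfbp7* went from 58.2 and 57.2 to 189 and 214 CPM, 3.49-fold (1.80, SE 0.15, limma, adjusted p = 2.9e-06). *Igfbp2* went from 82.5 and 82.1 to 245 and 206 CPM, 2.73-fold (1.45, SE 0.13, limma, adjusted p = 5.2e-06). Neither gene's groups overlapped, which is again a description with no test. *Igf1r* rose from 255 and 280 to 413 and 509 CPM (0.78, SE 0.12, limma, adjusted p = 0.00017), and *Igfbp4* from 123 and 115 to 172 and 176 CPM (0.55, SE 0.12, limma, adjusted p = 0.0022).

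*Igfbp5* and *Igfbp3* were uneven between the siBrca1 replicates. *Igfbp5* was at 56.5 and 32.6 CPM against 28.3 and 28.0 in nt (0.61, SE 0.18, limma, adjusted p = 0.014), and without siBrca1 replicate 1 the estimate was 0.21 (limma, adjusted p = 0.168). *Igfbp3* was at 38.0 and 18.8 CPM, above and below the nt libraries (30.5 and 29.3), and did not pass (−0.16, 95% interval −0.65 to 0.33). Without siBrca1 replicate 1 it was at −0.67 (limma, adjusted p = 0.00018) and without replicate 2 at 0.35 (limma, adjusted p = 0.048). *Brca1* itself was lower in the second siBrca1 library (19.4 against 37.5 CPM). *Igf1* had 13 and 19 reads (0.71, 95% interval −0.05 to 1.47) and *Igfbp6* was at 24.7 and 22.6 CPM (0.32, 95% interval 0.03 to 0.61, limma, adjusted p = 0.062).

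In siBard1 cells 7 of 8 members were higher than nt (47.6% of all genes were). There were 2 that passed higher (8.67% of all genes did) and 1 called higher (1.58% of all genes were). *Igfbp2* went from 82.5 and 82.1 to 221 and 162 CPM, 2.30-fold (1.20, SE 0.13, limma, adjusted p = 0.00021). *Igfbp7* went from 58.2 and 57.2 to 133 and 86.9 CPM (0.90, SE 0.15, limma, adjusted p = 0.0024, range over the alternatives 0.00025 to 0.0509). The first siBard1 library was the higher one for both. Without it *Igfbp2* was at 0.98 and no member was called, and without the second *Igfbp7* was at 1.20 and 2 were called. *Igf1r* was at 364 and 320 CPM, above both nt libraries (0.35, 95% interval 0.10 to 0.61), but did not pass (limma, adjusted p = 0.062). *Igfbp3* (29.3 and 34.9 CPM), *Igfbp4* (156 and 118), *Igfbp5* (34.3 and 32.8), *Igfbp6* (17.1 and 14.9) and *Igf1* (12 and 17 reads) did not pass either, with estimates of −0.24 to 0.36. The widest of their 95% intervals, that of *Igf1*, ran from −0.39 to 1.12. The median over the 8 was 0.30, against −0.02 over all genes.

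**Figure D2:**
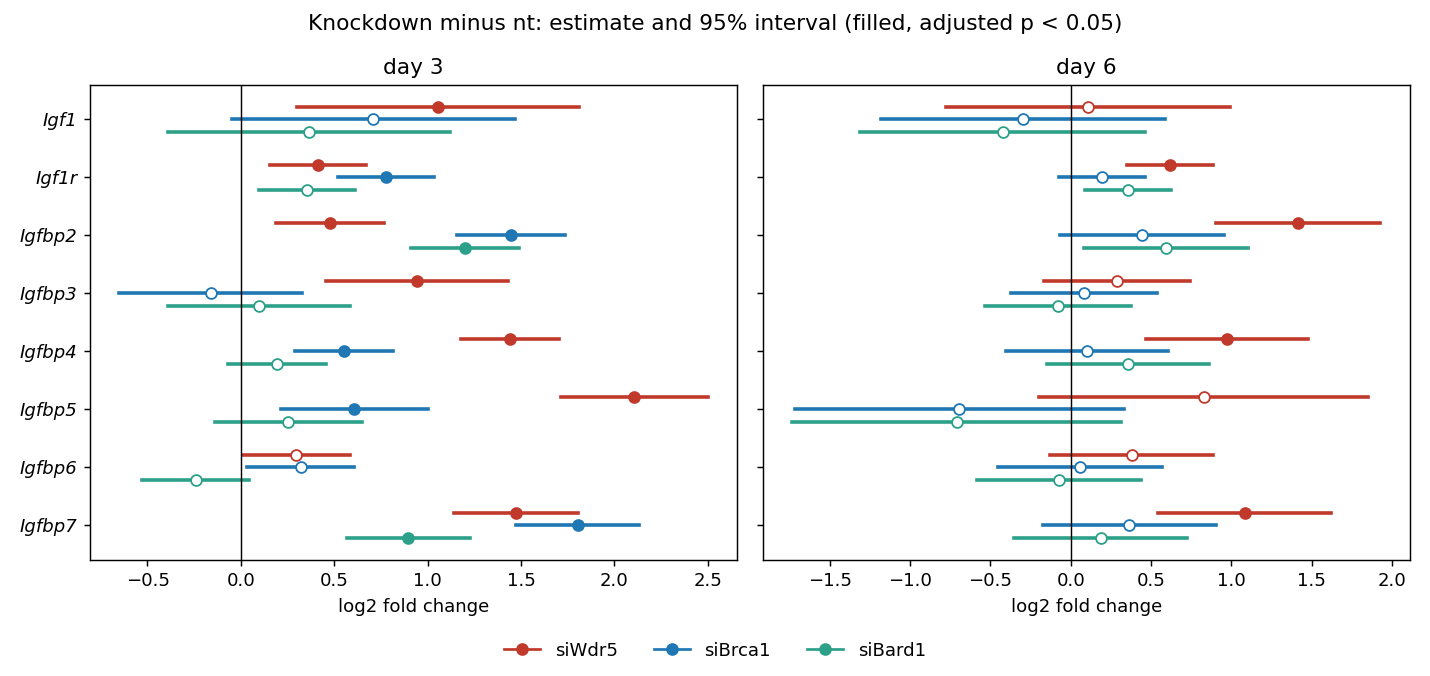
Log2 fold change of each member against nt (x axis) in siWdr5, siBrca1 and siBard1 at day 3 (left) and day 6 (right), with 95% intervals; filled points passed at an adjusted p below 0.05. At day 3, 7, 5 and 2 points are filled in siWdr5, siBrca1 and siBard1, and at day 6 the 4 filled points are all of siWdr5.

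The 3 knockdowns share their nt libraries, so differences between them were tested directly at day 3. siWdr5 differed from siBrca1 in 4 of 8 members (15.7% of all genes passed) and from siBard1 in 6 (8.63% of all genes). Higher in siWdr5 past 2-fold were 2 members in each of these comparisons, *Igfbp5* and *Igfbp3* against siBrca1 (1.60% of all genes called higher) and *Igfbp5* and *Igfbp4* against siBard1 (1.18% called higher). *Igfbp5* was 2.82-fold higher in siWdr5 than in siBrca1 (log2 difference 1.50, SE 0.18, limma, adjusted p = 0.00022). It was 3.61-fold higher than in siBard1 (1.85, SE 0.18, limma, adjusted p = 8.8e-05). The siWdr5 libraries (119 and 124 CPM) lay above all 4 libraries of the other knockdowns, which were at 32.6 to 56.5 CPM. *Igfbp4* was 1.86-fold higher than in siBrca1 (0.89, SE 0.12, limma, adjusted p = 0.00044) and 2.37-fold higher than in siBard1 (1.25, SE 0.12, limma, adjusted p = 8.8e-05).

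*Igfbp3* was also higher in siWdr5, by 1.10 on the log2 scale against siBrca1 (SE 0.23, limma, adjusted p = 0.0056) and by 0.84 against siBard1 (SE 0.23, limma, adjusted p = 0.035). The first of these lost its call without either siWdr5 library (limma, adjusted p up to 0.079) and was under 2-fold without siBrca1 replicate 2 (0.60). The second was under 2-fold throughout, and did not pass without any 1 of its 4 libraries (limma, adjusted p up to 0.219). *Igfbp2* had the opposite order. It was lower in siWdr5 than in siBrca1, with a log2 difference of −0.97 (SE 0.13, limma, adjusted p = 0.00047), and lower than in siBard1 (−0.72, SE 0.13, limma, adjusted p = 0.0058, up to 0.093 without either siWdr5 library). *Igfbp2* and its neighbour *Igfbp5* on chromosome 1 therefore differed in opposite directions between siWdr5 and each of the other knockdowns.

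*Igfbp7* did not pass between siWdr5 and siBrca1 (−0.33, 95% interval −0.66 to −0.00061, limma, adjusted p = 0.160), but was lower in siBard1 than in siWdr5 (0.58, SE 0.15, limma, adjusted p = 0.034) and than in siBrca1 (0.91, SE 0.15, limma, adjusted p = 0.0042). *Igfbp6* was lower in siBard1 too, by 0.54 against siWdr5 (limma, adjusted p = 0.024) and 0.56 against siBrca1 (limma, adjusted p = 0.011). Its levels were 17.1 and 14.9 CPM in siBard1 and 22.6 to 24.7 in the other knockdowns. *Igf1r* was higher in siBrca1 than in siBard1 (0.43, SE 0.12, limma, adjusted p = 0.023). These differences leaned on single libraries. Without siBard1 replicate 2 *Igfbp7* was lower by 0.27 than in siWdr5 and 0.60 than in siBrca1, against 0.88 and 1.21 without replicate 1. Its difference from siWdr5 did not pass without siBard1 replicate 2 or either siWdr5 library (limma, adjusted p up to 0.295), nor that from siBrca1 without siBard1 replicate 2 (0.092). *Igfbp6* did not pass without the same libraries, up to 0.206 against siWdr5 and 0.117 against siBrca1. *Igf1r* did not pass without siBard1 replicate 2 (limma, adjusted p = 0.174) or siBrca1 replicate 2, nor with quantile normalization, where the difference was 0.18. Between siBrca1 and siBard1 3 of 8 members passed higher (13.1% of all genes did) and none was called higher (1.46% of all genes were). An unadjusted p below 0.05 was reached by 4 members and by 5049 of all genes tested. *Igf1* passed in none of the 3 comparisons, and its intervals reached from −0.41 to 1.45.

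**Figure D3:**
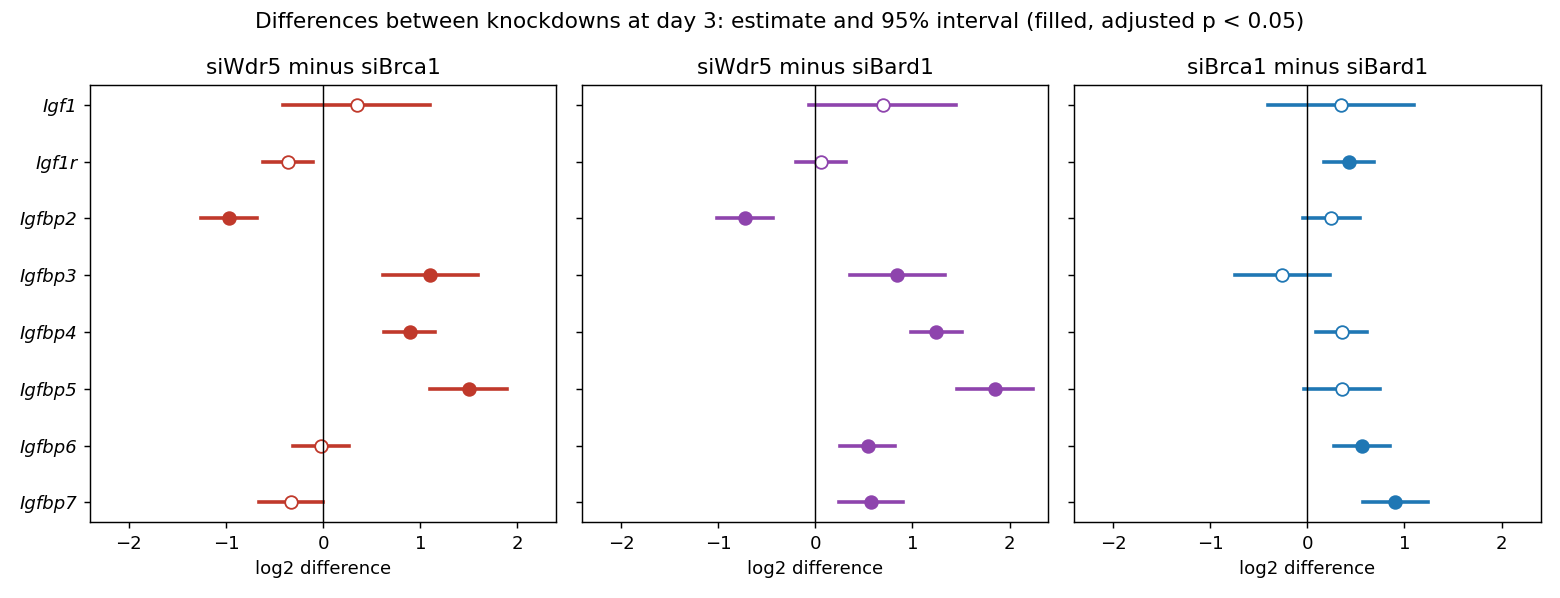
Log2 difference of each member between knockdowns at day 3 (x axis) with 95% intervals; filled points passed at an adjusted p below 0.05. *Igfbp3*, *Igfbp4* and *Igfbp5* lie right of 0 in both comparisons of siWdr5, where *Igfbp2* lies left of 0.

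Because the members moved unequally, the mix of binding protein RNA differed between groups. The summed level of the 6 binding proteins at day 3 was lowest in nt, with 150 ± 2.61 CPM per kb (mean ± SD, n = 2). It was 256 ± 55.9 in siBard1, 327 ± 3.32 in siWdr5 and 366 ± 7.93 in siBrca1. In nt, *Igfbp7* made up 31.7% of this sum, *Igfbp2* 29.6%, *Igfbp4* 17.9%, *Igfbp6* 11.3%, *Igfbp3* 6.35% and *Igfbp5* 3.12%. In siWdr5 the share of *Igfbp2* was 19.0% and that of *Igfbp4* 22.4%, with *Igfbp5* at 6.17%. In siBrca1, *Igfbp7* held 45.7% and *Igfbp2* 33.3%, and *Igfbp4* 10.8%. In siBard1, *Igfbp2* held most, 40.5%. At day 6 the sums were 147 ± 19.1 in nt, 275 ± 46.9 in siWdr5, 165 ± 10.4 in siBrca1 and 171 ± 23.7 in siBard1. *Igfbp3* had by then reached 24.3% of the nt sum, and *Igfbp2* 16.8%. These shares are descriptions, with no test.

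**Figure D4:**
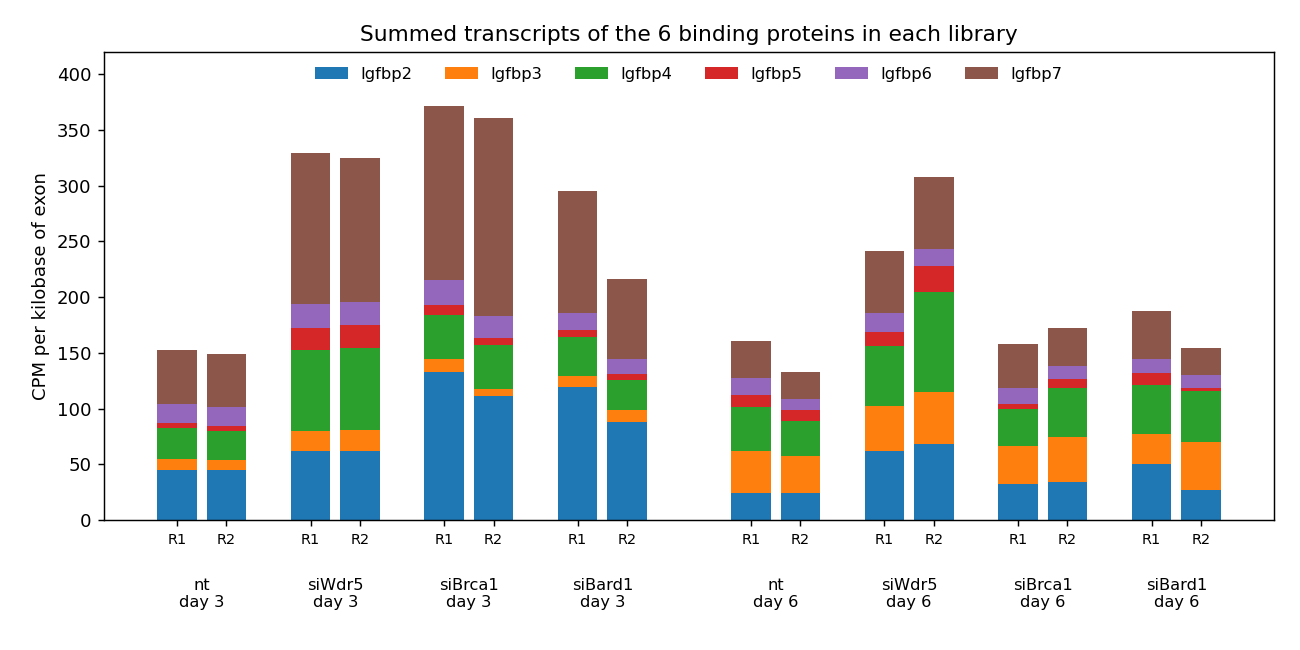
Summed CPM per kilobase of exon of the 6 binding proteins (y axis, from 0) in each library (R1 and R2 of each group), stacked by gene. At day 3 the sums are 150 in nt, 327 in siWdr5, 366 in siBrca1 and 256 in siBard1 on average, and at day 6 only the siWdr5 libraries lie above all of the others.

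At day 6 the siWdr5 libraries still stood apart. All 8 members were higher than in nt (56.4% of all genes were), 4 passed higher (16.1% of all genes did) and 2 were called higher (3.33% of all genes were). The median over the 8 was 0.72, against 0.08 over all genes. *Igfbp2* was at 44.7 and 45.4 CPM in nt and at 114 and 127 in siWdr5, 2.67-fold higher (1.42, SE 0.23, limma, adjusted p = 0.0050). *Igfbp7* went from 39.2 and 29.9 to 67.4 and 78.0 CPM, 2.12-fold (1.08, SE 0.24, limma, adjusted p = 0.014). *Igfbp4* rose from 176 and 138 to 238 and 394 CPM (0.97, SE 0.23, limma, adjusted p = 0.016) and *Igf1r* from 156 and 172 to 237 and 267 CPM (0.62, SE 0.12, limma, adjusted p = 0.0088). In none of the 4 did the groups overlap, which describes genes already chosen for passing and adds no test. In the same siWdr5 libraries 5 of 9 fibroblast markers passed higher and none lower, with a summed level of 9225 to 12684 CPM against 5090 to 5314 in nt. The largest part of the siWdr5 sum was *Col1a1* (3507 and 5181 CPM, against 1048 and 1016 in nt). *Dcn* (163 and 262 CPM against 301 and 291) and *Lum* (108 and 142 against 192 and 168) lay below nt. The early reprogramming markers summed to 194 to 243 CPM against 312 to 350 in nt, but only 1 of the 5 passed lower and none was called. Mitochondrial transcripts made up 1.18% and 1.26% of the siWdr5 libraries and 2.15% and 2.11% of the nt libraries. The part of these in the levels of the members was not tested.

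The day 6 calls leaned on single libraries. Without siWdr5 replicate 2 none of the members was called, where *Igfbp2* was at 1.34 (limma, adjusted p = 0.075) and *Igfbp7* at 0.98 (limma, adjusted p = 0.135). Without nt replicate 2 only *Igfbp2* was called. *Igfbp4* was at 0.61 without siWdr5 replicate 2 (limma, adjusted p = 0.145) and 1.34 without replicate 1, and did not pass without nt replicate 2 either. *Igf1r* did not pass without siWdr5 replicate 2 or either nt library (limma, adjusted p up to 0.094). *Igfbp5*, the member with the largest rise at day 3, was at 60.7 and 57.9 CPM in nt and at 78.4 and 141 in siWdr5, higher in both libraries but not passing (0.83, 95% interval −0.20 to 1.85, limma, adjusted p = 0.216). *Igfbp3* (126 and 146 against 118 and 104 CPM), *Igfbp6* (18.9 and 17.2 against 17.7 and 10.8 CPM) and *Igf1* (21 and 80 against 26 and 23 reads) did not pass.

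In siBrca1 and siBard1 none of the members passed at day 6 by limma. In siBrca1 none of the 8 had an unadjusted p below 0.05 and 0% of all genes were called, where limma-voom on the recovered reads called no gene either and 1123 genes had an unadjusted p below 0.05. In siBard1 2 members had an unadjusted p below 0.05, *Igfbp2* (93.4 and 49.3 CPM) and *Igf1r* (220 and 199 CPM). Of all genes tested 1908 had an unadjusted p below 0.05, while 0.0713% were called and 0.0784% passed. The siBard1 replicates were far apart for *Igfbp5* (65.2 and 20.2 CPM) and *Igfbp7* (52.6 and 28.8 CPM), with 1 library above and 1 below both nt libraries. The siBrca1 libraries were at 60.3 and 62.3 CPM for *Igfbp2*, 47.0 and 41.4 for *Igfbp7*, 183 and 192 for *Igf1r* and 28.0 and 47.9 for *Igfbp5*. The first 3 of these lay above both nt libraries and the last below both. As given above, *Brca1* and *Bard1* were by then at nt levels in these libraries, and the nt levels were themselves lower than at day 3.

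Whether a knockdown's change differed between the days was tested as an interaction over all 16 libraries. For siBrca1 3 members passed, all with a lower change at day 6 (10.3% of all genes did), and 2 were called (4.64% of all genes were). The change of *Igfbp7* was smaller at day 6 than at day 3 by 1.44 on the log2 scale (SE 0.32, limma, adjusted p = 0.0078), that of *Igfbp2* by 1.00 (SE 0.29, limma, adjusted p = 0.025) and that of *Igf1r* by 0.59 (SE 0.17, limma, adjusted p = 0.025). *Igfbp2* stood just past the 2-fold threshold. Of the 8 libraries of this contrast, siBrca1 day 6 replicate 2 was the only one without which *Igfbp2* was still called (−0.88 to −1.13 over the 8). *Igf1r* did not pass without siBrca1 day 3 replicate 2 (limma, adjusted p = 0.134), nt day 3 replicate 1 or nt day 6 replicate 2, nor with quantile normalization, where the difference was −0.39. For siWdr5 no member passed (4.43% of all genes did, 1.39% were called). The nearest was *Igfbp2*, whose change was larger at day 6 (0.94, 95% interval 0.32 to 1.56, limma, adjusted p = 0.074), while that of *Igfbp5* was smaller (−1.28, 95% interval −2.48 to −0.08, limma, adjusted p = 0.184). The median over all genes was 0.12 for this interaction. For siBard1 no member passed (0.0499% of all genes did, 0.0428% were called), with *Igfbp7* at −0.71 (95% interval −1.39 to −0.03).

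The genes around the axis were read from lists of its ligands and receptors, its proteases, its domain relatives and its signalling path. Of the other ligands, receptors and carriers, only *Igf2*, *Igf2r* and *Insr* were tested, and are named for that reason. *Igf2* passed in siWdr5 at day 3 (0.71, limma, adjusted p = 0.035), and *Igf2r* (0.81, limma, adjusted p = 0.00025) and *Insr* (0.38, limma, adjusted p = 0.026) in siBrca1. None of them passed in siBard1. *Igfbp1* was not among the genes of the deposited table.

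The proteases that cut the binding proteins, with their inhibitors, moved in the same libraries. Of 11 tested, 9 passed higher and 1 lower in siWdr5 at day 3, 6 higher and none lower in siBrca1, and 4 higher and none lower in siBard1, where 18.3%, 25.4% and 8.67% of all genes passed higher. The median log2 fold changes were 0.74, 0.78 and 0.36, against −0.04, 0.00 and −0.02 over all genes. *Pappa*, whose product PAPP-A cuts IGFBP4, was at 36.3 and 35.8 CPM in nt and at 106 and 169 CPM in siBrca1 (1.89, SE 0.17, limma, adjusted p = 3.5e-06). In siWdr5 *Pappa* was at 85.1 and 93.1 CPM (1.30, limma, adjusted p = 8.5e-05) and in siBard1 at 70.8 and 61.0 CPM (0.87, limma, adjusted p = 0.0049). *Htra1*, a serine protease that carries an IGFBP domain of its own and is in both lists, was at 48.0 and 58.3 CPM in nt and at 166 and 203 CPM in siBrca1 (1.80, SE 0.13, limma, adjusted p = 1.1e-06). It also rose in siWdr5 (1.22, limma, adjusted p = 2.7e-05) and in siBard1 (0.89, limma, adjusted p = 0.0011). *Plau*, the urokinase gene, rose by 1.66 in siBrca1 (limma, adjusted p = 6.2e-06), 1.31 in siWdr5 (limma, adjusted p = 6.2e-05) and 1.30 in siBard1 (limma, adjusted p = 0.00031). *Pappa2*, a close relative of *Pappa* that cuts IGFBP5, was at 0.532 and 0.707 CPM in nt and at 1.94 and 1.99 in siWdr5 (1.68, SE 0.41, limma, adjusted p = 0.0068). These came from few reads, 6 and 10 in nt and 29 and 28 in siWdr5.

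Of the genes that share the amino-terminal IGFBP domain 9 were tested, and 6 passed higher and none lower in each knockdown at day 3, where 18.3% of all genes passed higher in siWdr5, 25.4% in siBrca1 and 8.67% in siBard1. *Ctgf*, a matricellular protein induced by TGFβ and YAP, was at 29.8 and 42.2 CPM in nt and at 234 and 417 CPM in siBrca1 (3.14, SE 0.22, limma, adjusted p = 7.4e-07). It was at 169 and 209 CPM in siWdr5 and at 118 and 133 in siBard1, above both nt libraries in each (2.41 and 1.82, limma, adjusted p = 6.1e-06 and 0.00027). *Cyr61*, its close relative, rose by 1.54 in siBrca1 (limma, adjusted p = 1.2e-06), 1.19 in siWdr5 and 0.86 in siBard1. *Crim1*, a membrane protein that binds BMPs, rose by 1.50 in siBrca1 (limma, adjusted p = 1.3e-06), 0.91 in siWdr5 and 0.82 in siBard1. Of the 28 receptor adaptors and PI3K, AKT, mTOR and FOXO genes tested, 8 passed higher and 1 lower in siWdr5, 9 higher and 1 lower in siBrca1, and 2 higher and 1 lower in siBard1. Of all genes 18.3%, 25.4% and 8.67% passed higher, and nothing particular to the list is read from these counts. Their medians were 0.20, 0.22 and 0.07, against −0.04, 0.00 and −0.02 over all genes. The member of this list with the largest change in siBrca1, and its only one over 2-fold, was *Grb14* (1.20, SE 0.13, limma, adjusted p = 1.2e-05), an adaptor that inhibits insulin receptor signalling.

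Markers of other cell types moved in some of these libraries. Of the muscle markers *Acta1* and *Des* were called higher at day 3 in siBrca1 (3.13 and 2.26), siWdr5 (2.14 and 1.98) and siBard1 (2.05 and 1.21). The other muscle markers looked for, *Myod1*, *Myog* and *Pax7*, were not among the genes of the deposited table. The summed level of *Acta1* and *Des* was 40.5 to 52.2 CPM in nt, 251 to 277 in siBrca1, 186 to 188 in siWdr5 and 113 to 143 in siBard1. Of the adipocyte markers *Fabp4* (2.51) and *Plin1* (2.93) rose in siBrca1, with 47.5 to 51.3 CPM in nt and 51.7 to 91.8 in siBrca1 for the 4 markers in the table. Most of this sum was *Lpl* (49.1 and 44.6 CPM in nt, 44.2 and 67.5 in siBrca1). *Plin1* had only 2 and 0 reads in nt and 9 and 36 in siBrca1. *Fabp4* had 24 and 42 reads in nt and an uneven 88 and 302 in siBrca1. The 5 macrophage markers in the table summed to 8.21 to 9.19 CPM in nt and at most 18.8 CPM in any knockdown at day 3. *Cd68* (1.07) was higher in siBrca1 and *Csf1r* (1.81) in siWdr5. In siBrca1 2 of these markers were called higher, and *Csf1r* lay above nt there too (3.46 and 2.81 against 1.32 and 1.68 CPM). The 5 endothelial markers summed to 41.6 to 42.6 CPM in nt and 25.2 to 59.9 in the knockdowns, the 3 keratinocyte markers to 1.99 to 2.46 and 1.37 to 6.19, and the 3 neural crest and neuronal markers to 48.8 to 55.4 and 21.2 to 74.2. In nt nearly all of the endothelial sum was *Tek* (40.6 and 39.5 CPM), and most of the neural sum was *Tubb3* (51.8 and 45.3 CPM). *Trp63* (1.76) was over 2-fold in siWdr5 and *Tubb3* (−1.23) in siBrca1. Their part in the levels of the binding proteins was not tested.

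For each member the genes of the most similar pattern were named by Pearson's r of log2 CPM over the 16 libraries. These libraries fall into days and groups that all genes share, so r is a description with no test. *Igf1r* was closest to *Farp1* (0.996), *Actg1* (0.994) and *Flna* (0.993), and *Igfbp7* to *Mical2* (0.990), *Axl* (0.988) and *Fzd7* (0.987). *Igfbp3* was closest to *Flrt2* (0.984), *Dmkn* (0.962) and *Ntrk2* (0.959). *Igfbp4* was closest to *Serpinb1a* (0.953), *Sipa1l2* (0.939) and *Scarf2* (0.939), and *Igfbp2* to *Trio* (0.952), *Atp2b4* (0.950) and *Mfhas1* (0.950). *Igf1* had *C1s1* (0.938), *Colec12* (0.925) and *Cthrc1* (0.909). *Igfbp6* had *Ptgis* (0.925), *Sppl3* (0.922) and *AC134860.1* (0.917). The least matched member was *Igfbp5*, whose closest genes were *Csmd1* (0.899), *Casp6* (0.885) and *Pcdhga12* (0.870).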

How the data were processed

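Bulk RNA was depleted of ribosomal RNA and sequenced, and the authors aligned reads to mm10 with STAR 2.5.2b and computed log-CPM with edgeR 3.20.9, per the labels and methods. The deposited values are log2 CPM of 18990 genes in 16 libraries, scaled between libraries and with a small prior count. The read counter and annotation are not given in the sources used here. Read counts were recovered from the values (100% whole within 0.01 below 1000 reads), with 14198918 to 17393793 reads per library at day 3. Before the prior is added, 3 reads correspond to 0.115 to 0.260 CPM, a limit that covers counting error only. With the prior, a gene with 0 reads lies at 0.136 CPM. Replicates differed beyond sampling noise in each group (chi-square per degree of freedom 5.15 to 26.3).

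The 14028 genes whose log2 CPM averaged 0 or more were fitted with limma 3.58.1 in R 4.3.3 with a trend, day by day over 8 libraries, and over all 16 for contrasts between days. P-values are two-sided and Benjamini-Hochberg adjusted over all genes tested. Called means more than 2-fold at an adjusted p below 0.05, and passing the p alone. Intervals are 95%. The authors tested counts with another tool. Because the deposited unit is log2 CPM, limma on these values was the main test, with limma-voom on the recovered reads as an alternative. Named are the 8 members, the knockdown targets, at most the 4 genes of each list with the largest change among those called at day 3 in any knockdown, and the 3 genes most like each member. Members and lists were chosen with earlier results of these data known. Coordinates and lengths are from GENCODE vM21, promoters from RefSeq (all 8 members matched). The fit was tested on simulated counts for siWdr5 against nt at day 3 only, with the same spread set for every gene and library. The other contrasts were not simulated. With 2 libraries per group, an exact test over samples cannot reach p < 0.05, so only fits across all genes are given. Alternatives were no filter, a mean of at least 2, no trend, 4 or all 16 libraries, centring, quantile normalization, a pseudocount of 1 CPM, limma-voom, no fold threshold, a replicate block and leaving out each library.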

Additional observations from a re-analysis of the deposited data

Results flagged for a closer look

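In siBrca1, 3 members changed differently at day 6 than at day 3 in the test of that difference (limma, all 16 libraries). The differences were −1.44 for *Igfbp7* (adjusted p = 0.0078), −1.004 for *Igfbp2* (adjusted p = 0.025) and −0.59 for *Igf1r* (adjusted p = 0.025), on the log2 scale. *Igfbp2* (adjusted p up to 0.0748) and *Igf1r* (up to 0.134) did not pass under some alternatives, single libraries left out among them, and *Igfbp7* passed under each (up to 0.0398). At day 3 the changes against nt were 1.804, 1.45 and 0.78, and at day 6 they were 0.36, 0.44 and 0.19, none of which passed. *Brca1* was lower than nt at day 3 (−1.57) and not at day 6 (0.01). Its mean in nt was 80.2 CPM at day 3 and 37.9 at day 6, and in siBrca1 28.4 and 38.0 CPM. The part of *Brca1* in these differences was not tested.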

How the results depend on the processing

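Counts of members are given here as past both thresholds unless stated. Without the fold threshold they were 7 in siWdr5, 5 in siBrca1 and 2 in siBard1 at day 3, 4 in siWdr5 at day 6, 6 for nt over time, 4 for siWdr5 against siBrca1, 3 for siBrca1 against siBard1 and 6 for siWdr5 against siBard1. Without the trend, 1 was called in siWdr5 at day 6, 1 in the siBrca1 interaction and 1 for siWdr5 against siBrca1. With quantile normalization 1 was called in siWdr5 at day 6 and 1 in the siBrca1 interaction. Leaving out each library gave 0 to 2 in siBard1 at day 3, 0 to 2 in siWdr5 at day 6, 0 to 1 in siBard1 at day 6, 1 to 3 for nt over time, 1 to 2 in the siBrca1 interaction, 1 to 2 for siWdr5 against siBrca1 and 0 to 1 for siBrca1 against siBard1. Of 104 log2 estimates (8 members in 13 comparisons) 23 turned sign under at least 1 alternative, and 0 of these 23 passed at an adjusted p below 0.05 as reported. Among day 3 changes against nt and siWdr5 at day 6 these were 4, with log2 ranges of −0.67 to 0.35 for *Igfbp3* in siBrca1, −0.0075 to 0.40 for *Igfbp4* in siBard1 and −0.028 to 0.22 for *Igfbp3* in siBard1, at day 3, and −0.40 to 0.61 for *Igf1* in siWdr5 at day 6. The cause was not tested. The counts for siWdr5 and siBrca1 at day 3 stayed within 1.5 times under the other alternatives. With quantile normalization *Igf1r* was at 0.25 in siWdr5 and 0.50 in siBrca1 at day 3 and at 0.41 in siWdr5 at day 6. The deviations of samples with the same replicate number correlated above 0.1 in 0 of 6 pairs of groups at day 3 (−0.09 to 0.07) and in 3 of 6 at day 6 (−0.07 to 0.26), and the study describes the replicates as independent experiments but no label ties a number to one shared by the groups, so the samples were not taken as paired. The replicate block left the counts of members called at 4, 2 and 1 at day 3 and 2, 0 and 0 at day 6 in siWdr5, siBrca1 and siBard1, and moved the count over all genes in siBard1 at day 6 from 10 to 33 and in its interaction from 6 to 67. Limma-voom called 1057, 1934 and 353 genes at day 3. With 9 to 23 reads per library at day 3, *Igf1* is limited by depth. A lone library, where its replicate was left out, was assumed to vary like the other groups.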
